A study of Mus musculus with 76 samples.

Results

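Small nucleolar RNAs and small Cajal body RNAs were followed together with long RNAs named as hosts of such RNAs. The samples were visceral white adipose tissue (WAT) and liver of mice with 1 of 2 *Fnip2* genotypes, *Fnip2*T/T or *Fnip2*C/C. Members were the rows of each tissue's table whose gene symbol starts with Snora, Snord, Scarna or Snhg, or is *Gas5*, and that had any value above 0 in the tissue. This left 61 of the 18964 rows in WAT, namely 44 small RNAs (12 Snora, 28 Snord and 4 Scarna) and 17 host RNAs. In liver it left 33 of 16775 rows, namely 16 small RNAs (4 Snora, 10 Snord and 2 Scarna) and the same 17 host RNAs. All 16 small RNAs of the liver were also above 0 in WAT, and the remaining 28 were above 0 in WAT alone. Members were thus chosen by symbol and by a measured value above 0 in any library of the tissue, and genotype did not enter.

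*Fnip2*C/C mice carry a knock-in T-to-C change in *Fnip2*, which encodes a partner of folliculin in the nutrient response of the mTORC1 kinase, introduced with CRISPR/Cas9 in zygotes, and 1 further substitution at the site the nuclease recognises. *Fnip2*T/T mice carry the unedited allele. All mice were female and fed ad libitum, and their ages and litters are not given in the labels. WAT was taken from 4 mice with the knock-in and 5 without, liver from 5 and 5, and 6 mice gave both. Each ± below is a standard deviation over mice (SD), with n = 4 for *Fnip2*C/C and n = 5 for *Fnip2*T/T in WAT and n = 5 for each genotype in liver. Total RNA was primed with oligo-dT and read from the 3′ end (QuantSeq 3′ mRNA-Seq), so a value counts reads near a priming site and not whole transcripts. The knock-in changes bases and does not remove the gene, so the level of *Fnip2* is no check of the genotype labels. Its normalized counts were 22.8 ± 6.99 against 28.3 ± 10.5 in WAT and 155 ± 29.2 against 104 ± 33.2 in liver, and neither difference passed the test.

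Box C/D RNAs (Snord) guide ribose methylation and box H/ACA RNAs (Snora) guide pseudouridylation of ribosomal RNA in the nucleolus, while Scarna RNAs do the same for the spliceosomal RNAs in Cajal bodies. Most are cut out of introns and keep no poly(A) tail, whereas *Snord3a* (U3), *Snord118* (U8) and *Snord13* (U13) come from genes of their own and act in the cutting or base modification of ribosomal RNA. The host RNAs *Gas5* and most Snhg genes are spliced, polyadenylated RNAs with little or no coding potential, while the annotation used here types *Snhg11* as protein-coding. Several host RNAs are known substrates of nonsense-mediated decay (NMD), the surveillance pathway for transcripts with early stop codons.

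The ends of the 4 box C/D RNAs with the largest genotype differences in WAT are shown first, because the boxes by which such an RNA is recognised lie there. Each was read from the GENCODE vM21 record of that name on GRCm38, while the deposited tables were counted on GRCm39, so that coordinates are those of the record. Capitals mark box C, searched as TGATGA in the first 30 bases, and box D, searched as CTGA in the last 20 bases, on the RNA's own strand.
Snord89, first 30 bases: gctgaggagTGATGAcataaaaggccgaat
Snord89, last 20 bases: agtcactgtCTGAcctcagt
Snord87, first 30 bases: gctggcacaaTGATGActtaagtttttgcc
Snord87, last 20 bases: taaaagaCTGAgatgccagc
Snord67, first 30 bases: tgtgagagTGATGAgttgcacactggtgga
Snord67, last 20 bases: caggggccatCTGActcaca
Snord15a, first 30 bases: cttcgatgaagaggTGATGAcgagtctgag
Snord15a, last 20 bases: gaggcatttgtCTGAgaagg
These RNAs are 110, 87, 111 and 148 bases long in the order shown. *Snord89* lies at chr1:39548745-39548854 on the minus strand in an intron of the non-coding gene *Gm15832*, and *Snord87* at chr1:9942463-9942549 on the minus strand in an intron of *Snhg6*. *Snord67* lies at chr2:91596070-91596180 on the plus strand inside *Ckap5*, in an exon of a transcript annotated as a retained intron. *Snord15a* lies at chr7:99482785-99482932 on the minus strand in an intron of *Rps3*, a gene of a ribosomal protein of the small subunit. Of the 26 Snord members with a GENCODE record, 21 held the box C letters and 26 the box D letters in these windows, against 73.2% and 97.9% of all 97 annotated Snord genes.

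Because the libraries were primed with oligo-dT, the longest uninterrupted run of A was also counted in each record. The median longest run was 4.0 bases in the 42 members with a record and 3.0 bases in the 104 annotated small RNAs that had no row above 0 in WAT. A run of at least 5 was present in 16.7% of the former and 4.81% of the latter. Among the 10 RNAs with a record that were called higher in *Fnip2*C/C WAT, only *Snord49b* had such a run, of 8 bases, shown here with its box C in capitals at its first base.
Snord49b, first 30 bases: TGATGAtgaaactagaaaaaaaaggaagtg
*Snora73b*, a box H/ACA RNA, holds its ACA box 3 bases before its end, as do 34 of the 40 annotated Snora genes, and its box is in capitals here.
Snora73b, last 20 bases: aaaccatgcaggaaACAaaa
*Snord49b* lies at chr11:62603079-62603150 on the plus strand in an intron of the non-coding gene *2410006H16Rik*, and *Snora73b* at chr4:132352322-132352526 on the minus strand in an intron shared by *Rcc1* and *Snhg3*. Whether priming within the RNA, at a tail or on an unspliced host transcript gave the reads was not tested.

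Recovered reads per library ranged from 4180209 to 6277644 in WAT and from 5583041 to 7523200 in liver. The adipocyte gene *Adipoq* averaged 18964 ± 3083 in *Fnip2*T/T against 9174 ± 4767 in *Fnip2*C/C WAT, and *Adipoq*, *Plin1*, *Lep* and *Retn* had no row in liver. Summed hepatocyte markers reached 572690 to 763780 normalized counts in the livers. The WAT library of *Fnip2*C/C mouse 593 stands apart, with 20351 summed normalized counts of ovary markers against 33.5 to 100.04 in the other 8. Several results below are given with and without it. Of 8 adipocyte markers, 6 were lower in *Fnip2*C/C WAT, 0 were higher and 2 were not called. Their summed levels were 72023 to 229070 in *Fnip2*C/C and 108840 to 197620 in *Fnip2*T/T libraries. The sum of 72023 is that of mouse 593, and the other *Fnip2*C/C libraries ran from 167120 to 229070. No mesothelial marker of 6 and no ovary marker of the 4 tested passed the test. Of 6 macrophage markers *C1qa* was higher and *Adgre1* and *Cd68* were lower, the hepatocyte genes *Alb* and *Cyp2e1* were lower, and so was the lymphocyte gene *Trbc2*. The part of these cell type markers in the differences below was not tested, and in bulk tissue fewer cells of a type and less RNA per cell cannot be told apart.

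Small RNAs were higher in *Fnip2*C/C than in *Fnip2*T/T WAT. Rows with a mean of at least 10 normalized counts over the 9 WAT libraries were tested with limma on log2(normalized count + 1), and all fold changes below are on that scale, which understates the change of low rows. Of the 17 small RNAs tested, 11 passed an adjusted p of 0.05, all of them higher in *Fnip2*C/C, and 6 did not pass. Across all 12798 rows tested the shares called were 32.1% in either direction, 15.1% higher and 17.0% lower. The called RNAs were 9 of 12 Snord, 1 of 2 Snora and 1 of 3 Scarna. Of the 17, 5 (*Snord87*, *Snord67*, *Snord55*, *Snord49b* and *Scarna2*) had a *Fnip2*T/T mean under 10 and therefore reached the minimum through the *Fnip2*C/C libraries, so that these had to differ. Of the 12 with both means at 10 or more, 7 were called. Over all 44 small RNA rows with no minimum, 39 fold changes were above 0 and 5 below, with a median log2 fold change of 0.92 against 0.01 over all 18957 rows fitted, and 12 were called. The other 27 small RNAs had means from 1.04 to 8.59, with *Snord70* at 8.59 nearest below the minimum and *Snord49b* at 10.4 nearest above it.

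*Snord89* had the largest log2 fold change among the small RNAs. Its normalized counts were 853, 2259, 361 and 1862 in the *Fnip2*C/C libraries of mice 590, 593, 599 and 638. In the *Fnip2*T/T libraries of mice 607, 608, 609, 657 and 658 they were 88.6, 233, 98.2, 194 and 86.4. All 4 *Fnip2*C/C libraries lay above all 5 *Fnip2*T/T libraries, although the *Fnip2*C/C values spread widely. The group means were 1334 ± 878 and 140 ± 68.5. The log2 fold change was 3.05 (SE 0.51, adjusted p = 0.00179, limma), which is 8.29-fold between means taken on the log2 scale. The exact permutation test gave p = 0.00794, the smallest that 126 groupings allow. Without mouse 593 the log2 fold change was 2.69 (SE 0.50, adjusted p = 0.0046), and with mice numbered under 610 only the adjusted p was 0.058, past the threshold no longer.

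*Snord3a* (U3), which base-pairs with the ribosomal RNA precursor in the particle that first cuts it, had the second highest *Fnip2*C/C mean among the RNAs without overlap. It stood at 129, 303, 232 and 333 normalized counts in *Fnip2*C/C mice 590, 593, 599 and 638. In *Fnip2*T/T mice 607, 608, 609, 657 and 658 it stood at 37.7, 92.4, 52.5, 45.6 and 49.3. The genotypes did not overlap, and the lowest *Fnip2*C/C library exceeded the highest *Fnip2*T/T library. The means of 249 ± 90.4 and 55.5 ± 21.4 gave a log2 fold change of 2.13 (SE 0.31, adjusted p = 0.000809, limma), the lowest adjusted p of any member. Its call held under all 21 alternatives that gave it a value. The mouse genome carries several near-identical U3 genes, so reads assigned to *Snord3a* can belong to another copy.

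*Snord13* (U13), which helps guide acetylation of the small subunit ribosomal RNA, rested on fewer libraries. Its normalized counts were 443, 3116, 319 and 857 in *Fnip2*C/C mice 590, 593, 599 and 638, and 213, 342, 333, 180 and 164 in *Fnip2*T/T mice 607, 608, 609, 657 and 658. The groups overlapped, since mouse 599 lay below mice 608 and 609, and mouse 593 stood far above all others. Its log2 fold change was 1.73 (SE 0.56, adjusted p = 0.0367, limma) with all libraries and 1.07 (SE 0.33, adjusted p = 0.0313) without mouse 593. This call was lost under 9 of 21 alternatives, among them scaling all libraries to the same total and a term for mouse number.

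*Scarna17*, the Cajal body member with the highest counts, stood at 107, 258, 133 and 396 in *Fnip2*C/C mice 590, 593, 599 and 638. It stood at 56.6, 67.1, 46.9, 45.6 and 51.5 in *Fnip2*T/T mice 607, 608, 609, 657 and 658. No *Fnip2*T/T library reached the lowest *Fnip2*C/C value. Its log2 fold change was 1.86 (SE 0.33, adjusted p = 0.0018, limma). *Scarna2* had a log2 fold change of 1.33 (adjusted p = 0.0716) and *Scarna10* one of 0.79 (adjusted p = 0.206), neither of which passed.

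*Snord87* stood at 36.5, 72.1, 24.9 and 51.5 in *Fnip2*C/C mice 590, 593, 599 and 638, and at 0.821, 7.78, 3.35, 11.9 and 6.82 in *Fnip2*T/T mice 607, 608, 609, 657 and 658. The 2 groups came from 175 and 33 recovered reads and did not overlap. Its log2 fold change was 2.90 (SE 0.55, adjusted p = 0.00248, limma). *Snord67*, a guide for the U6 spliceosomal RNA, stood at 25.9, 53.3, 27.1 and 32.8 against 3.28, 5.84, 5.58, 6.94 and 7.58 in the same order of mice. Again every *Fnip2*C/C library was above every *Fnip2*T/T library, with a log2 fold change of 2.36 (SE 0.37, adjusted p = 0.00118). *Snord15a* stood at 27.1, 100.1, 52.0 and 85.5 against 4.92, 17.5, 23.4, 7.93 and 9.85, with *Fnip2*C/C mouse 590 only just above *Fnip2*T/T mouse 609. Its log2 fold change was 2.31 (SE 0.47, adjusted p = 0.00354).

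The remaining calls were of similar size. *Snord55* averaged 37.1 ± 13.0 in *Fnip2*C/C against 7.38 ± 2.66 in *Fnip2*T/T WAT, with a log2 fold change of 2.17 (adjusted p = 0.00157, limma). *Snord49b* averaged 18.1 ± 4.72 against 4.24 ± 1.85, a log2 fold change of 1.91 (adjusted p = 0.00857). *Snora73b*, a relative of the E1 (U17) RNA that acts in cutting of the ribosomal RNA precursor, averaged 40.5 ± 14.0 against 10.8 ± 4.04, a log2 fold change of 1.82 (adjusted p = 0.00414). In these 3 RNAs the genotypes did not overlap. *Snord8*, named here after its values were seen, overlapped and had a log2 fold change of 1.29 (adjusted p = 0.0325), which fell to 1.02 (adjusted p = 0.0936) without mouse 593. In all, 9 of the 17 tested small RNAs did not overlap between genotypes, each of them higher in *Fnip2*C/C, and 12.2% of all rows tested did not overlap and were higher. Of these 9, *Snord87*, *Snord67*, *Snord55* and *Snord49b* are among those that reached the minimum through the *Fnip2*C/C libraries, so the count is given as a description only. *Snord15a*, *Snord49b* and *Snora73b* have close copies in the genome, and reads could be split between them.

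**Figure D1:**
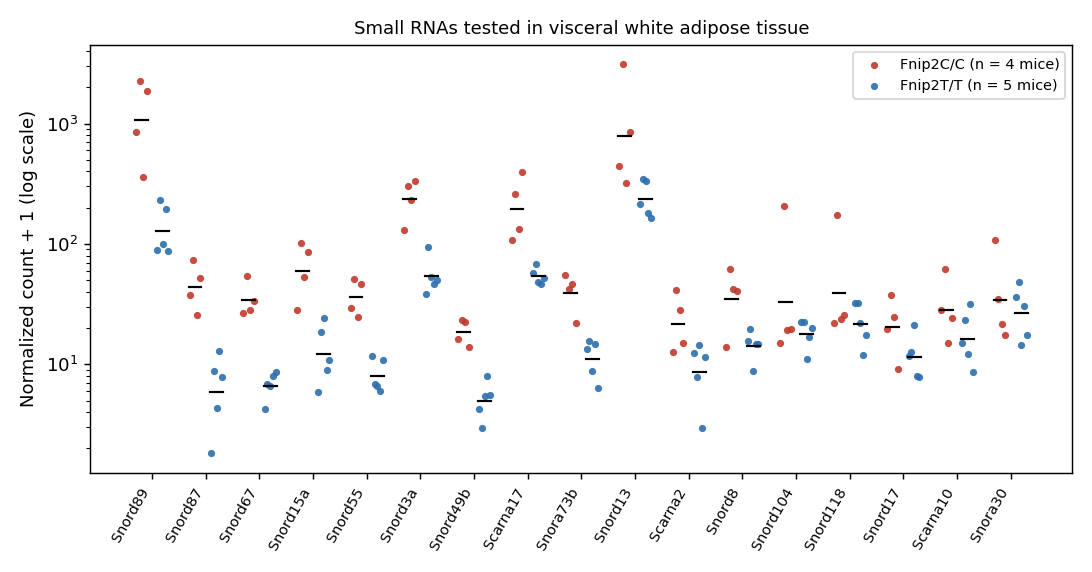
Normalized counts plus 1 (log axis) of the 17 small RNAs tested in WAT, ordered by log2 fold change. Each point is 1 mouse, 4 *Fnip2*C/C in red and 5 *Fnip2*T/T in blue, and bars are means on the log2 scale. The groups separate from *Snord89* to *Snora73b*, while *Snord104* and *Snord118* are raised in 1 *Fnip2*C/C library only, that of mouse 593.

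*Snord118* (U8), which acts in maturation of the large subunit ribosomal RNAs, and *Snord104* did not pass the test in WAT. *Snord118* stood at 21.2, 174, 22.8 and 24.6 normalized counts in *Fnip2*C/C mice 590, 593, 599 and 638, and at 31.2, 31.1, 21.2, 10.9 and 16.7 in *Fnip2*T/T mice 607, 608, 609, 657 and 658. *Snord104* stood at 14.1, 206, 18.4 and 18.7 in the former and at 21.3, 21.4, 10.05, 15.9 and 18.9 in the latter. In both, mouse 593 alone lay above the range of the *Fnip2*T/T libraries. Their log2 fold changes of 0.85 (adjusted p = 0.27, limma) and 0.88 (adjusted p = 0.316) were 0.13 and 0.00 without that mouse. *Snord17* (0.83) and *Snora30* (0.36) also failed to pass, and like *Scarna2* and *Scarna10* are named after their values were seen, to account for every small RNA tested.

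Summed over the 44 rows and scaled to a common total of recovered reads per library (RPM), small RNAs came to 401, 1627, 312 and 810 in *Fnip2*C/C mice 590, 593, 599 and 638. The sums in *Fnip2*T/T mice 607, 608, 609, 657 and 658 were 149, 219, 146, 159 and 109.6. The lowest *Fnip2*C/C sum lay above the highest *Fnip2*T/T sum, with a mean log2 difference of 2.06. In normalized counts the sums averaged 3637 ± 2508 and 708 ± 182, with a mean log2 difference of 2.14. *Snord89*, *Snord13* and *Snord3a* held 76.1% of the mean sum in *Fnip2*C/C and 62.4% in *Fnip2*T/T WAT. Without these 3 the mean log2 difference of the sums was 1.64, and without mouse 593 that of all 44 rows was 1.73. The difference lay in counts per row more than in the number of rows above 0, which was 35 to 41 in *Fnip2*C/C and 31 to 39 in *Fnip2*T/T libraries. Split by annotation, the 35 RNAs with a host gene on the same strand had 8 calls among 11 tested, and the 7 with none (*Snord13*, *Snord118*, *Snord104*, *Scarna17*, *Scarna2*, *Snora17* and *Snora57*) had 2 calls among 5 tested. Across all rows tested 15.1% were called higher. However, 4 of the 11 and 1 of the 5 had a *Fnip2*T/T mean under 10 and were tested through their *Fnip2*C/C libraries. With both means at 10 or more, 4 of 7 with a host and 2 of 4 without were called. The split is a description only.

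**Figure D2:**
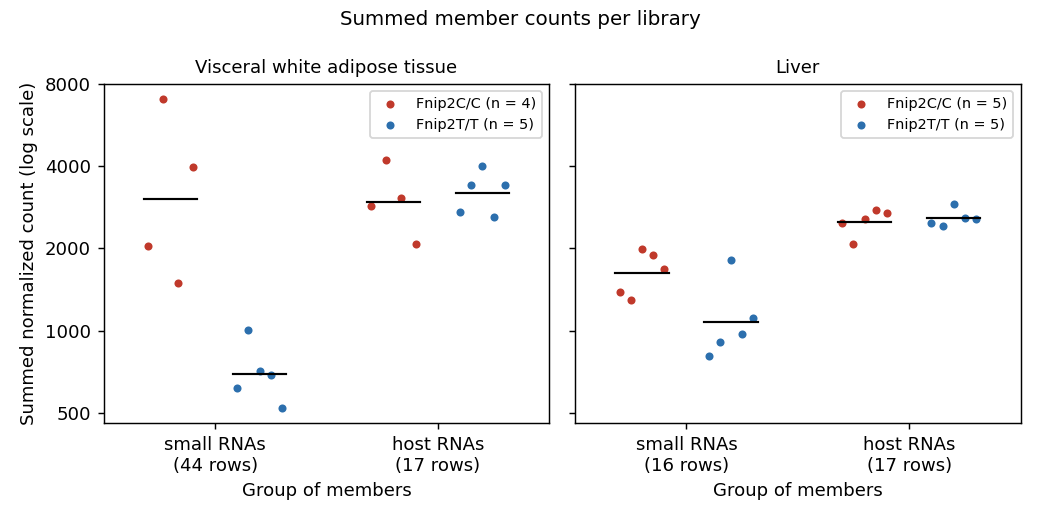
Summed normalized counts per library (log axis) of small RNAs and host RNAs in WAT and liver, which were normalized separately. Each point is 1 mouse and bars are means on the log2 scale. The small RNAs of WAT separate by genotype, with 1499 to 7047 in *Fnip2*C/C libraries against a mean of 708 in *Fnip2*T/T libraries, and the other 3 comparisons overlap.

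As a group the host RNAs did not rise with the small RNAs, but most members of the groups are not host and guest. By the annotation, only *Snora73b* (in *Snhg3*), *Snord87* (in *Snhg6*) and *Snord123* (in *Snhg18*) lie within a host RNA counted here. Among these pairs, only *Snora73b* and *Snhg3* were both tested in WAT. The other small RNAs lie in other genes, or have no annotated host or no record. Of the 13 host RNAs tested in WAT, 2 were higher in *Fnip2*C/C, 3 were lower and 8 did not pass, against 15.1% and 17.0% of all rows. Their median log2 fold change was -0.30, and over all 17 host rows with no minimum 4 values were above 0 and 13 below, with a median of -0.45. The summed host RNAs were 2072 to 4205 normalized counts in *Fnip2*C/C and 2607 to 3999.7 in *Fnip2*T/T libraries, with a mean log2 difference of -0.11. The highest *Fnip2*C/C sum was that of mouse 593, and without this mouse the mean log2 difference was -0.28.

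*Snhg1*, the non-coding host of a cluster of box C/D RNAs, had counts of 285, 768, 331 and 305 in *Fnip2*C/C mice 590, 593, 599 and 638. It had 204, 205, 133, 145 and 195 in *Fnip2*T/T mice 607, 608, 609, 657 and 658. Mouse 593 was highest, but the other 3 *Fnip2*C/C libraries also lay above all *Fnip2*T/T libraries. The log2 fold change was 1.15 (SE 0.28, adjusted p = 0.0084, limma) and 0.82 (SE 0.20, adjusted p = 0.0114) without mouse 593. *Snhg20* averaged 427 ± 136 against 244 ± 23.6, a log2 fold change of 0.76 (SE 0.20, adjusted p = 0.012), and the genotypes did not overlap. Without mouse 593 its log2 fold change was 0.56 (SE 0.17, adjusted p = 0.0258, limma).

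The 3 host RNAs that fell also did not overlap between genotypes. This is a description only, since the share of all rows that were lower without overlap was not counted. Of these 3 host RNAs, *Snhg4* and *Snhg14* had *Fnip2*C/C means under 10 and reached the minimum through the *Fnip2*T/T libraries, as did *Snhg8*, which did not pass. Of the 10 host RNAs with both means at 10 or more, 3 were called. *Snhg3*, which holds *Snora73b* in an intron, was at 38.8, 34.6, 53.1 and 44.5 in *Fnip2*C/C mice 590, 593, 599 and 638, and at 79.6, 64.2, 62.5, 81.3 and 86.4 in *Fnip2*T/T mice 607, 608, 609, 657 and 658. Every *Fnip2*T/T library was higher, and the log2 fold change was -0.80 (SE 0.21, adjusted p = 0.0135, limma). *Snhg4* averaged 4.82 ± 3.04 against 17.7 ± 3.10, a log2 fold change of -1.83 (adjusted p = 0.00919). *Snhg14*, the long paternally expressed RNA of the Prader-Willi region, averaged 7.59 ± 3.74 against 19.4 ± 2.96, a log2 fold change of -1.32 (adjusted p = 0.0172). None of the Snord115 or Snord116 RNAs that *Snhg14* hosts had a row among the members. With mice numbered under 610 only, 0 of 12 host RNAs passed limma and 4 had an unadjusted p under 0.05, and edgeR on all mice called 6 of 13.

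*Gas5*, a growth arrest-specific RNA that hosts box C/D RNAs and is degraded by NMD, had counts of 359, 817, 388 and 244 in *Fnip2*C/C mice 590, 593, 599 and 638. The *Fnip2*T/T mice 607, 608, 609, 657 and 658 had 549.8, 571, 586, 547 and 732. The 3 *Fnip2*C/C libraries other than mouse 593 lay below all *Fnip2*T/T libraries, and mouse 593 lay above them. With all libraries the log2 fold change of -0.54 (SE 0.28, adjusted p = 0.154, limma) did not pass, and without mouse 593 it was -0.87 (SE 0.20, adjusted p = 0.0082). *Snhg12* ran from 49.4 to 88.9 in *Fnip2*C/C and from 67.1 to 90.9 in *Fnip2*T/T WAT, with a log2 fold change of -0.23 (adjusted p = 0.443).

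**Figure D3:**
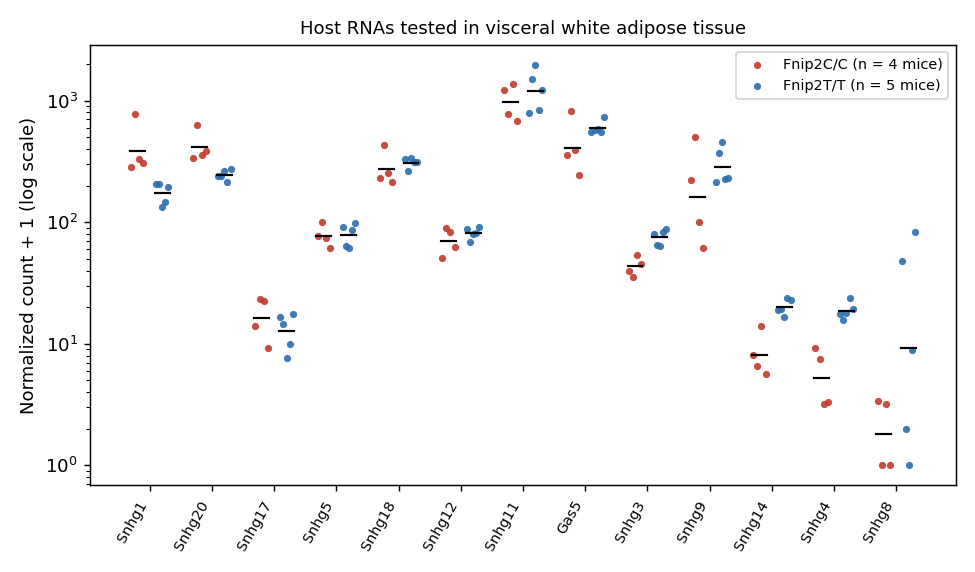
Normalized counts plus 1 (log axis) of the 13 host RNAs tested in WAT, ordered by log2 fold change. Each point is 1 mouse, 4 *Fnip2*C/C in red and 5 *Fnip2*T/T in blue, and bars are means on the log2 scale. *Snhg1* and *Snhg20* are higher in *Fnip2*C/C without overlap, *Snhg3*, *Snhg14* and *Snhg4* are lower without overlap, and *Gas5* is lower in 3 of 4 *Fnip2*C/C libraries.

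Small RNAs and the genes that hold them were then set side by side. Of the pairs of a small RNA and an annotated host on its strand, 10 had both sides tested in WAT. In 9 of the 10 the small RNA had the higher log2 fold change, the exception being *Snora30* (0.36) in *Srcap* (0.83). *Snora30* enters with each of its hosts. *Snord49b*, *Snord67* and *Snord55* had *Fnip2*T/T means of 4.24, 5.84 and 7.38, under the minimum of 10. They were tested through their *Fnip2*C/C libraries and had to differ, so the count of pairs is a description only. *Snord15a* differed by 2.31 while *Rps3*, a ribosomal protein gene, differed by -1.28 (SE 0.36, adjusted p = 0.0179, limma). *Snord49b* differed by 1.91 while its non-coding host *2410006H16Rik* differed by -2.40 (SE 0.46, adjusted p = 0.00285), from 183 ± 81.6 in *Fnip2*T/T to 35.4 ± 17.6 in *Fnip2*C/C WAT. *Snora73b* and *Snhg3* moved in opposite directions as given above. These are the 3 pairs in which the small RNA was called higher and the host lower.

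*Snord8* and *Chd8*, which encodes a chromatin remodeller, were both higher, with log2 fold changes of 1.29 and 0.54 (SE 0.17, adjusted p = 0.0253, limma). *Ckap5*, a microtubule assembly gene that holds *Snord67*, had a log2 fold change of 0.60 (adjusted p = 0.0571), which did not pass. The hosts of *Snord89* and *Snord87* were too low to test. *Gm15832* averaged 2.23 ± 1.94 with the knock-in and 4.37 ± 1.83 without, and *Snhg6* 9.10 and 7.56. Over the 26 protein-coding hosts tested, 7 were higher, 5 were lower and 14 did not pass, against 15.1% higher and 17.0% lower of all rows, with a median log2 fold change of -0.00 against 0.02 over all rows tested.

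**Figure D4:**
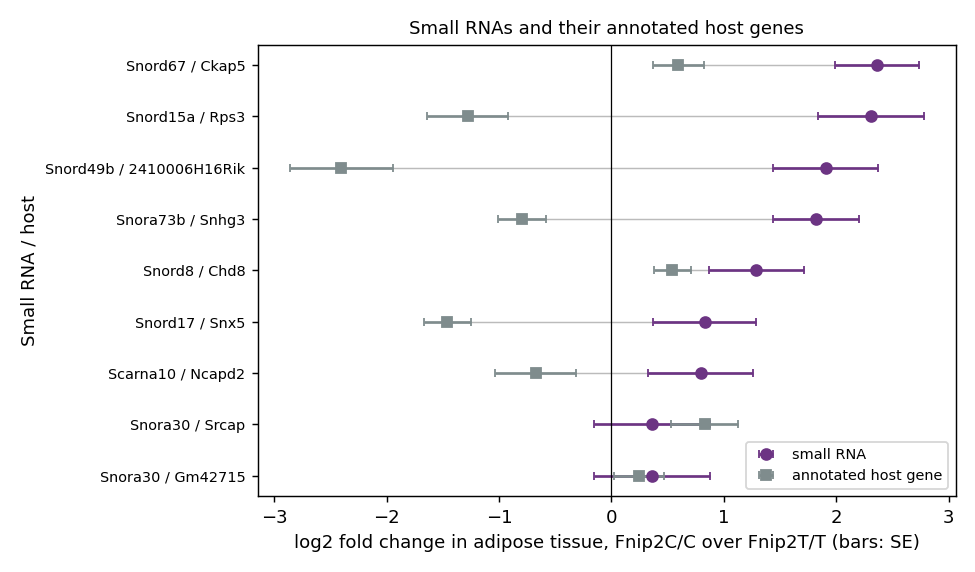
log2 fold change in WAT, *Fnip2*C/C over *Fnip2*T/T, of each small RNA (circles) and its annotated host gene (squares) for 9 of the 10 pairs with both tested. Bars are standard errors, and *Snora30* appears with each of its hosts. The small RNA lies to the right of its host in 8 of the 9 pairs drawn, with the widest gap at *Snord49b* (1.91 against -2.40). *Snord49b* and *Snord67* reached the minimum for testing through their *Fnip2*C/C libraries.

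In liver no member differed between genotypes past the threshold. In the WAT table even RNA numbers in the labels are all *Fnip2*C/C and odd ones all *Fnip2*T/T, whereas in liver each genotype holds both even and odd numbers. The liver results and the comparison of tissues rest on the labels as given, and whether the liver labels are right was not tested. Of 8 small RNAs and 15 host RNAs tested, 0 and 0 passed limma, edgeR or DESeq2, and across all 11710 rows limma called 0.0%. At an unadjusted p under 0.05 limma counted 2 of the 8 small RNAs and 0 of the 15 host RNAs, against 1.97% of all rows, and edgeR and DESeq2 also counted 2 and 0. Those 2 were *Snord118* and *Snord13*.

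*Snord118* stood at 356, 366, 575, 534 and 420.3 normalized counts in *Fnip2*C/C livers of mice 590, 591, 592, 638 and 639. In *Fnip2*T/T livers of mice 607, 608, 657, 658 and 659 it had 186, 271, 426, 301 and 199. The groups overlapped because of mouse 657, and the other 4 *Fnip2*T/T livers lay below every *Fnip2*C/C liver. The log2 fold change was 0.74 (SE 0.21, p = 0.00325 unadjusted and 1.00 adjusted, limma), and the exact permutation test gave p = 0.0317 over 252 groupings. *Snord13* had 707, 606, 1058, 1021 and 927 against 439, 386, 952, 403 and 574, with mouse 657 again above the other *Fnip2*T/T livers. Its log2 fold change was 0.70 (SE 0.24, p = 0.0125 unadjusted and 1.00 adjusted, limma).

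*Scarna17* averaged 55.4 ± 5.15 in *Fnip2*C/C and 42.5 ± 32.2 in *Fnip2*T/T livers, with a log2 fold change of 0.63 (SE 0.34, adjusted p = 1.00, limma). Its *Fnip2*T/T values ran from 19.1 to 97.5, the highest being mouse 657. *Snord3a* averaged 25.7 ± 9.33 and 21.3 ± 7.09, a log2 fold change of 0.23 (SE 0.29), and *Snord104* 180.1 ± 30.1 and 168 ± 53.0, one of 0.14 (SE 0.19). *Snord89* lay between 2.11 and 33.5 in *Fnip2*C/C and between 4.78 and 54.8 in *Fnip2*T/T livers, with a log2 fold change of -0.22 (SE 0.73) and complete overlap. *Gas5* averaged 1422 ± 178 and 1439.9 ± 147, a log2 fold change of -0.02 (SE 0.12), and *Snhg3*, *Snhg4* and *Snhg14*, which fell in WAT, had log2 fold changes of 0.15, 0.04 and 0.10 in liver. The median log2 fold change over the 16 small RNA rows of the liver was 0.19 with 10 above 0, and over the 17 host rows 0.04 with 9 above 0. Summed small RNAs were 1290 to 1989 in *Fnip2*C/C and 808 to 1807 in *Fnip2*T/T livers, a mean log2 difference of 0.60 with overlap.

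The small RNAs with the highest counts differed between the tissues. Since the tables were normalized separately, levels across them are given as RPM, with no test. *Snord118* had a median of 4.74 in WAT and 55.2 in liver, and *Snord104* one of 3.84 and 25.9. *Snord3a* had 20.1 in WAT and 3.61 in liver, and *Snord89* had 50.6 and 1.00. *Snord13* was closer, with medians of 68.3 and 100.4. Among the host RNAs, *Snhg11* had a median of 241 in WAT and 3.21 in liver, and *Gas5* 124 and 215. *Snord13*, *Snord118* and *Snord104* together held 90.6% of the summed small RNA counts in *Fnip2*C/C livers and 88.8% in *Fnip2*T/T livers.

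Whether the genotype difference itself differed between WAT and liver was tested as an interaction over the 10404 rows kept in both tables, of which 29.2% were called. Of the 8 small RNAs, 2 were called, and of the 13 host RNAs, 5. *Snord89* differed by 3.27 on the log2 scale (SE 1.01, adjusted p = 0.0219, limma) and *Snord3a* by 1.90 (SE 0.44, adjusted p = 0.00324), each more positive in WAT. *Snhg1* (1.25, adjusted p = 0.006) and *Snhg20* (0.83, adjusted p = 0.0241) were more positive in WAT, and *Snhg4* (-1.87, adjusted p = 0.00563), *Snhg14* (-1.42, adjusted p = 0.0107) and *Snhg3* (-0.95, adjusted p = 0.0129) more negative. For *Scarna17* the interaction was 1.24 (adjusted p = 0.0746) and for *Snord13* 1.03 (adjusted p = 0.246), which did not pass. For *Snord118* it was 0.11 (SE 0.66, adjusted p = 0.915).

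**Figure D5:**
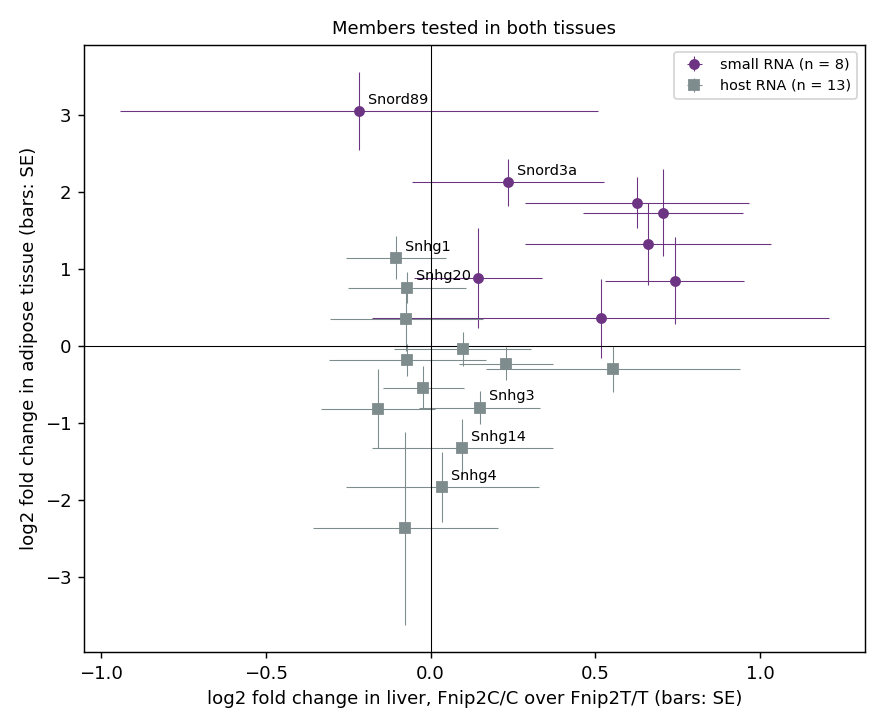
log2 fold change, *Fnip2*C/C over *Fnip2*T/T, in WAT (vertical) against liver (horizontal) for the 8 small RNAs and 13 host RNAs tested in both tissues, with standard errors as bars and different scales on the axes. The 7 named members passed the interaction test. All 8 small RNAs lie above 0 in WAT, and the liver values of these 21 stay between -0.22 and 0.74.

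The proteins that bind and modify these RNAs were read from lists chosen with earlier results known. Of the box C/D core, *Nop58*, which itself hosts *Snord70* and *Snord11*, rose in *Fnip2*C/C WAT, with a log2 fold change of 0.64 (SE 0.17, adjusted p = 0.0133, limma). *Fbl*, the methyltransferase (-0.20), *Nop56* (0.68, adjusted p = 0.0748) and *Snu13* (-0.94, adjusted p = 0.0705) did not pass. Of the box H/ACA core, *Dkc1*, the pseudouridine synthase, rose from 427 ± 82.1 to 1167 ± 324, a log2 fold change of 1.43 (SE 0.23, adjusted p = 0.00117). *Nhp2* rose by 1.27 (adjusted p = 0.00302), *Nop10* fell by 1.10 (adjusted p = 0.0208), and *Gar1* was too low to test. The core proteins thus moved in both directions.

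Among 15 tested genes for assembly and transport of the particles, 4 were higher, 0 lower and 11 not called, against 15.1% higher and 17.0% lower of all rows, with a median log2 fold change of 0.37. *Tgs1*, which trimethylates the cap of RNAs such as U3, rose by 0.73 (adjusted p = 0.011, limma), *Rpap3* by 0.69 (adjusted p = 0.0151) and *Znhit6* by 0.75 (adjusted p = 0.0289). Among 8 genes for intron release and end trimming, 1 was higher and 1 lower. *Mtrex*, the helicase that feeds the nuclear exosome, rose by 0.79 (adjusted p = 0.0071), and *Exosc10*, a nuclease of that exosome, had a log2 fold change of -0.71 (adjusted p = 0.0128). *Tent4b*, which adds short A tails to nuclear RNAs, had a log2 fold change of 0.52 (adjusted p = 0.0828) and did not pass.

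Among 11 tested NMD genes, 6 were higher, 0 lower and 5 not called, beside the same 15.1% and 17.0% of all rows, with a median log2 fold change of 0.49. *Gspt1*, a translation termination factor, rose by 0.95 (adjusted p = 0.0098, limma) and *Smg9* by 0.84 (adjusted p = 0.0283). Among 16 genes of RNA polymerase I and ribosomal RNA processing, 6 were higher, 3 lower and 7 not called, with a median log2 fold change of 0.05. *Wdr43*, which hosts *Snord92*, rose by 1.28 (adjusted p = 0.00106), *Ncl*, which hosts *Snord82*, rose by 0.88 (adjusted p = 0.00312), and *Polr1d* fell by 1.34 (adjusted p = 0.00409). None of these lists had a called gene in liver.

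Other RNA classes were compared to place the small RNAs. Among the 13 tested snoRNA and scaRNA genes that carry other symbols, 4 were higher and 0 lower in *Fnip2*C/C WAT, with a median log2 fold change of 0.61. Among 9 spliceosomal RNA (snRNA) genes 4 were higher and 0 lower, with a median of 0.50. Across all rows tested 15.1% were called higher and 17.0% lower. Of the called snoRNA and scaRNA genes, *Gm22980* and *Gm23639* had *Fnip2*T/T means of 4.41 and 6.36, under the minimum of 10. Of the called snRNA genes, *Gm26129* and *Gm24924* had 9.2 and 8.76. These reached the minimum through their *Fnip2*C/C libraries and had to differ. The remaining called snRNA genes, *Rnu11* and *Gm26244*, lay near the threshold, with adjusted p of 0.0478 and 0.0479 (limma). Both overlapped between genotypes, and *Rnu11* was at 173 in mouse 593 against 43.5 to 59.7 in the other *Fnip2*C/C libraries. Long non-coding (lincRNA) genes had 10.7% higher and 12.9% lower, protein-coding genes 14.7% and 17.5%, and processed pseudogenes 26.6% and 20.5%. Nuclear-retained long RNAs did not move with the small RNAs. Of the 6 tested in WAT, 0 were higher and *Neat1* was lower, with a log2 fold change of -0.94 (adjusted p = 0.0137, limma), and their summed levels overlapped at 31254 to 43936 in *Fnip2*C/C and 30128 to 48102 in *Fnip2*T/T libraries.

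The rows whose log2 values ran most like the summed small RNAs over the 9 WAT libraries were *2610507I01Rik* (r = 0.981), *Syne2* (0.980), *Chd8* (0.979), *Gm11510* (0.973) and *Ptma* (0.971). These are Pearson correlations chosen as the highest of all tested rows that are no members, so they describe the libraries, which share genotype groups, and carry no test. *Chd8* is the host of *Snord8*, whose counts are part of the sum.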

How the data were processed

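RNA from visceral WAT and liver of female mice was made into oligo-dT primed 3′ end libraries from 500 and 250 ng. The labels list each library as 4 runs, which the tables hold as 1 column. The submitters' processing notes name FastQC 0.11.9, HISAT2, SAMtools 1.12, HTSeq, DESeq2 and GRCm39. The strand setting of the counting is not given in the sources used here. The authors deposited 1 table per tissue whose signal values are gene counts divided by 1 size factor per library. Groups came from the genotype and mouse number in the labels. The WAT table has 1 column that no label describes, which was not used. Even and odd RNA numbers in the labels separate the genotypes in WAT and not in liver, and the labels were followed. Whole reads were recovered for 100% of values, between 4180209 and 7523200 per library, and they cover counting error only.

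Values plus 1 were put on a log2 scale, rows with a mean of at least 10 were fitted with limma 3.58.1 in R 4.3.3 (trend and robust), and Benjamini-Hochberg adjustment ran over all rows, with calls under 0.05. The step was tested on simulated data. Single members also had exact two-sided permutation tests of the mean log2 difference. The interaction used all 19 libraries. The 6 mice with both tissues pair the samples, and the deviations of their libraries correlated between -0.20 and 0.16 over genes. Alternatives included edgeR 4.0.16 and DESeq2 1.42.0 on recovered reads. Host genes, positions and sequences came from GENCODE vM21.

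The members, lists and tests were chosen with earlier results of these data known. Named were, for small RNAs, those called in WAT without overlap with the largest fold changes, the 5 highest means per tissue and the 3 lowest p in liver. For host RNAs they were *Gas5*, *Snhg1*, *Snhg12*, *Snhg14* and the 5 lowest p in WAT, and for lists the core proteins and the 3 lowest p each. A few results on single genes are not reported here.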

Additional observations from a re-analysis of the deposited data

Results flagged for a closer look

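Over the members described, 66 groups of 4 or 5 libraries were checked on the scale of log2(normalized count + 1). In 5 groups the gap of 1 library to its neighbour took up more of the range than Dixon's critical value. Chance flags about 1 in 20 groups. The ratios below are on that log2 scale, while the counts beside them are not. Mouse 593 was the library set apart in *Fnip2*C/C WAT for *Snord104* (206 normalized counts against 18.7 in the next, ratio 0.898), *Snord118* (174 against 24.6, ratio 0.930) and *Snhg1* (768 against 331, ratio 0.849). In *Fnip2*T/T WAT it was mouse 658 for *Gas5* (732 against 586, ratio 0.765), and in *Fnip2*T/T liver mouse 659 for *Snord89* (54.8 against 7.32, ratio 0.839).

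The genotype difference differed between WAT and liver, by an interaction term, for 7 of the 21 members tested, and for 29.2% of all rows tested. The differences on the log2 scale were 3.27 for *Snord89*, 1.90 for *Snord3a*, 1.25 for *Snhg1*, 0.83 for *Snhg20*, -0.95 for *Snhg3*, -1.42 for *Snhg14* and -1.87 for *Snhg4*.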

How the results depend on the processing

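In WAT, 9 to 13 small RNAs were called under the other settings run apart from those named next, none of them lower in *Fnip2*C/C. With mice numbered under 610 only, chosen after seeing the data, 8 of 18 small RNAs and 0 of 12 host RNAs were called. A minimum mean of 50 left 4 small RNAs, 3 host RNAs and 3 interactions called among fewer rows tested. Leaving out 1 mouse gave 9 to 11 small RNAs, 5 to 7 host RNAs and 5 to 8 interactions. Without mouse 593, 9 of the 11 small RNAs remained called, *Snord8* lost its call and *Snord49b* fell under the minimum, while *Gas5* and *Snhg9* were added to the 5 host RNAs. The interaction for *Snord89* lost its call without mouse 638 and with library weights, and that for *Snhg20* without mouse 593, 607, 638 or 657, and the cause was not tested. With the mouse as replicate block the interaction again gave 7 calls, and it changed no other call. In liver 0 members were called under any setting, and log2 fold changes near 0 changed sign. *Gas5* was at 0.0088 with a term for mouse numbers and 0.0207 with library weights, and ran from -0.0649 to 0.0556 as single mice were left out. *Snhg14* was at -0.0105 with library weights, and *Snord104* and *Snord89* ran from -0.0241 to 0.292 and from -0.698 to 0.17 as single mice were left out. Members under about 10 normalized counts rest on few reads, and the tests above say little of them.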
